A study of Mus musculus with 16 samples.

Results

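The 39 Polycomb and trithorax group genes described here are the subunits and enzymes of the complexes that maintain the on and off states of developmental genes, among them the Hox genes. They were taken by their gene symbols, and all 39 were found among the 26411 genes of the count tables and passed the filter on low counts that left 15679 genes. The RNA was that of 16 entire E9.5 mouse embryos, 4 of each genotype. Wild-type Kat6a+/+Kat6b+/+ embryos carried both intact genes. Kat6a-/-Kat6b+/+ embryos were homozygous for a Kat6a null allele from which several exons are deleted, with intact Kat6b. Kat6a+/+Tg(Kat6b) embryos had intact Kat6a and extra copies of Kat6b on a bacterial artificial chromosome transgene. Kat6a-/-Tg(Kat6b) embryos combined the null allele with the transgene. All embryos shared an FVB x BALB/c hybrid background. The transgene came from 1 germline founder and holds the Kat6b gene with flanking sequence, so both transgenic groups share its insertion site. Each genotype had 2 female and 2 male embryos.

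Polycomb repressive complex 2 (PRC2) methylates histone H3 at lysine 27, and Polycomb repressive complex 1 (PRC1) ubiquitinates histone H2A. Canonical PRC1 reads the lysine 27 mark through a CBX subunit, whereas variant PRC1 carries RYBP and is brought to CpG islands by other subunits. Trithorax group proteins, most of them histone H3 lysine 4 methyltransferases and their shared subunits, counteract this repression, and mutants of either group shift the borders of Hox expression and so the identity of vertebrae. KAT6A and KAT6B are histone acetyltransferases of the MYST family.

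The library of an embryo held between 14407277 and 45665680 counts, and the 39 genes together took 0.393% to 0.429% of them. Kat6b was higher than in wild type by a log2 fold change of 2.02 in Kat6a+/+Tg(Kat6b) embryos and of 2.14 in those of Kat6a-/-Tg(Kat6b). Kat6a counts ranged from 176 to 211 CPM (library-scaled counts, as edgeR's cpm function gives them) in wild type and from 189 to 218 CPM in Kat6a-/-Kat6b+/+ embryos, so counts over the whole gene cannot check the deletion. In whole embryos, fewer cells of a type and less RNA per cell cannot be told apart. Kat6a-/-Kat6b+/+ embryos came from litters 801 and 803. Litters 2597 and 2598 gave those of Kat6a+/+Tg(Kat6b), and each of these 4 litters also gave 1 wild-type embryo. Litters 483 and 498 gave only Kat6a-/-Tg(Kat6b) embryos, so that genotype and its litters cannot be told apart. Summed markers of primitive blood cells, heart muscle, neural progenitors, early neurons, somites, neural crest and endothelium were detected in every embryo, with no call in any pairwise comparison for the 4 blood and the 4 heart genes. Markers of germ cells were near 0, at 0.387 to 1.01 CPM. Replicate 1 of Kat6a+/+Tg(Kat6b) stood apart in long genes: over 753 genes longer than 8000 bases its median log2 difference from the other 3 embryos of its genotype was -0.272, while the other 15 embryos lay between -0.0984 and 0.121.

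In wild-type embryos most of the 39 genes were well expressed. On the RPKM scale, CPM divided by gene length in kilobases, which allows levels of different genes to be compared, their median was 20.9 against 7.29 for all tested genes, 27 lay above 10 and 9 under 5. PRC2 was led by its methyltransferase Ezh2, the highest of all at 90.2 ± 1.09 RPKM (SD, n = 4), with single embryos from 88.7 to 91.2. Its core subunits Eed and Suz12 were at 42.4 and 33.9 RPKM, and the other methyltransferase, Ezh1, at 3.14 RPKM. Within an embryo, Ezh2 was 28.8 ± 1.79 times as high as Ezh1 (SD, n = 4). Of the accessory subunits, Mtf2 was at 27.2, Jarid2 at 20.9, Phf1 at 4.90 and Phf19 at 0.746 RPKM. Phf19 was the lowest of the 39, with values of 0.720, 0.780, 0.717 and 0.769 RPKM.

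Both ubiquitin ligases of PRC1 were present, Rnf2 (RING1B) at 40.2 and Ring1 (RING1A) at 16.4 RPKM. Of the 4 chromodomain subunits listed, Cbx2 made up 76.7% ± 2.10 of their summed RPKM (SD, n = 4), ahead of Cbx6 at 15.2%, Cbx8 at 5.78% and Cbx7 at 2.33%. Cbx2 was at 50.8 ± 1.46 RPKM, while Cbx7, the second lowest gene, ranged from 1.16 to 2.04 RPKM. The 6 PCGF subunits, which define the kind of PRC1, were more even: Pcgf2 (MEL18) took 30.8%, Bmi1 (PCGF4) 24.0%, Pcgf6 23.8%, Pcgf3 16.6%, Pcgf1 2.64% and Pcgf5 2.04% of their sum. Pcgf5 was the third lowest gene, at 1.99 to 2.30 RPKM. Of the polyhomeotic subunits, which join canonical complexes together, Phc2 was at 54.3, Phc1 at 25.9 and Phc3 at 2.81 RPKM. Kdm2b, which binds CpG islands, was at 25.3 and Rybp at 15.6 RPKM. The H2A deubiquitinase Bap1 was at 55.7 ± 0.816 RPKM (SD, n = 4), between 55.1 and 56.9, and its cofactor Asxl1 at 30.3 RPKM.

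On the trithorax side, the shared subunits of the lysine 4 methyltransferases were higher than the enzymes. Wdr5, at 56.6 ± 0.534 RPKM (SD, n = 4) and 56.1 to 57.4 in single embryos, was second of the 39, and Ash2l, Dpy30 and Rbbp5 were at 51.1, 49.1 and 20.7 RPKM. Menin (Men1), a partner of KMT2A and KMT2B, was at 39.5 RPKM, and the lysine 27 demethylase Kdm6b at 29.8 RPKM. The methyltransferases Kmt2b, Kmt2a, Kmt2d and Kmt2c were at 18.4, 7.90, 6.38 and 3.71 RPKM, Kmt2e (MLL5) at 17.5 and the lysine 36 methyltransferase Ash1l at 6.69 RPKM. Neighbours in the order often lay within the spread between embryos. Kdm2b, Bmi1 and Pcgf6, at 25.3, 25.2 and 25.1 RPKM, could not be ranked, whereas Ezh2 lay above every value of Wdr5.

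**Figure D1:**
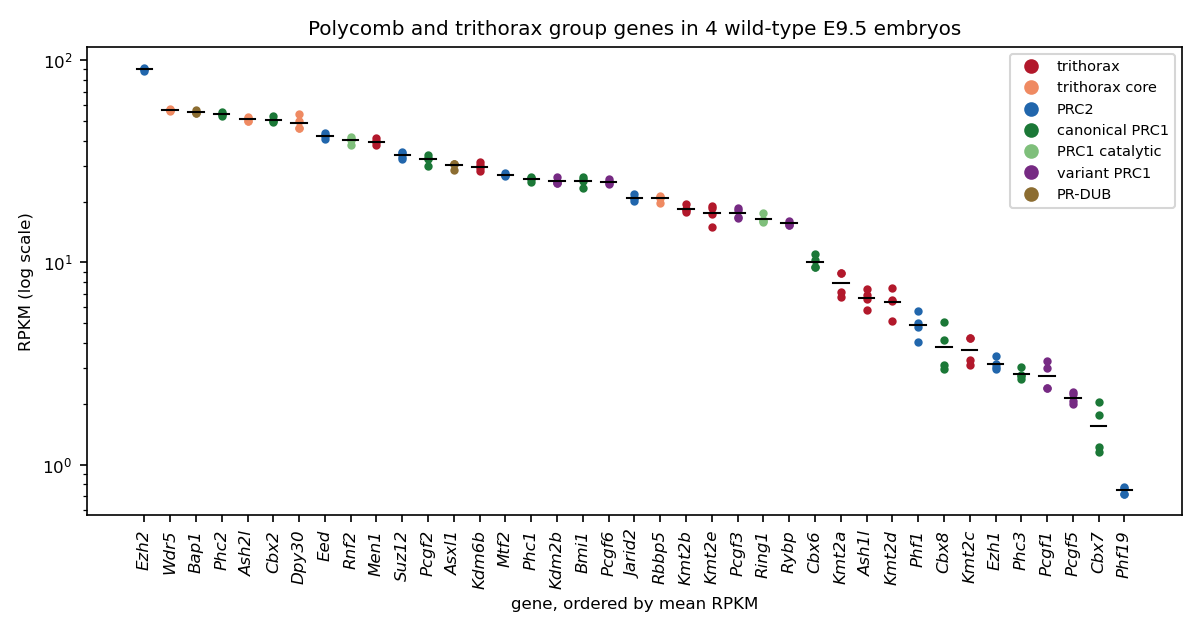
Level of each of the 39 genes in the 4 wild-type embryos (points) with the mean (line), in RPKM on a log axis, ordered by the mean and coloured by complex. Ezh2 leads at 90.2 RPKM, Phf19 is lowest at 0.746 RPKM, and the H3 lysine 4 methyltransferases lie below their shared subunits.

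Across the comparisons of genotypes the 39 genes differed little. The range of their log2 fold changes was widest between the transgenic genotypes, Kat6a-/-Tg(Kat6b) relative to Kat6a+/+Tg(Kat6b), from -0.299 to 0.618, and 1 of the 39, Kmt2a, passed 1.5-fold in any comparison. Their median log2 fold change lay between -0.00844 and 0.0329 over the 5 pairwise comparisons, beside -0.00778 to 0.00325 for all tested genes. Within a genotype the embryos were close to each other, with a median coefficient of variation of 4.06% to 4.65% over the 39 genes. A test of any difference among the 4 genotypes called 7 of the 39 at an edgeR FDR (Benjamini-Hochberg adjusted p over all 15679 genes) under 0.05, namely Bmi1, Pcgf2, Kmt2d, Rybp, Ring1, Pcgf6 and Mtf2, where 11.5% of all tested genes were called. The calls of Bmi1, Pcgf2 and Kmt2d held in all 25 alternatives of this test, which exclude the litter block and fits of 2 genotypes. That of Mtf2 was lost in 10 (FDR 0.0508 to 0.143), that of Pcgf6 in 7 (0.0522 to 0.0776) and that of Rybp in 3, without replicate 1, 2 or 4 of Kat6a-/-Kat6b+/+ (edgeR FDR = 0.0697, 0.0764 and 0.0515). Ring1 lost its call without replicate 1 of Kat6a+/+Tg(Kat6b) (edgeR FDR = 0.0956). At an unadjusted p under 0.05 were 18 of the 39, or 46.2% beside 28.2% of all tested genes.

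**Figure D2:**
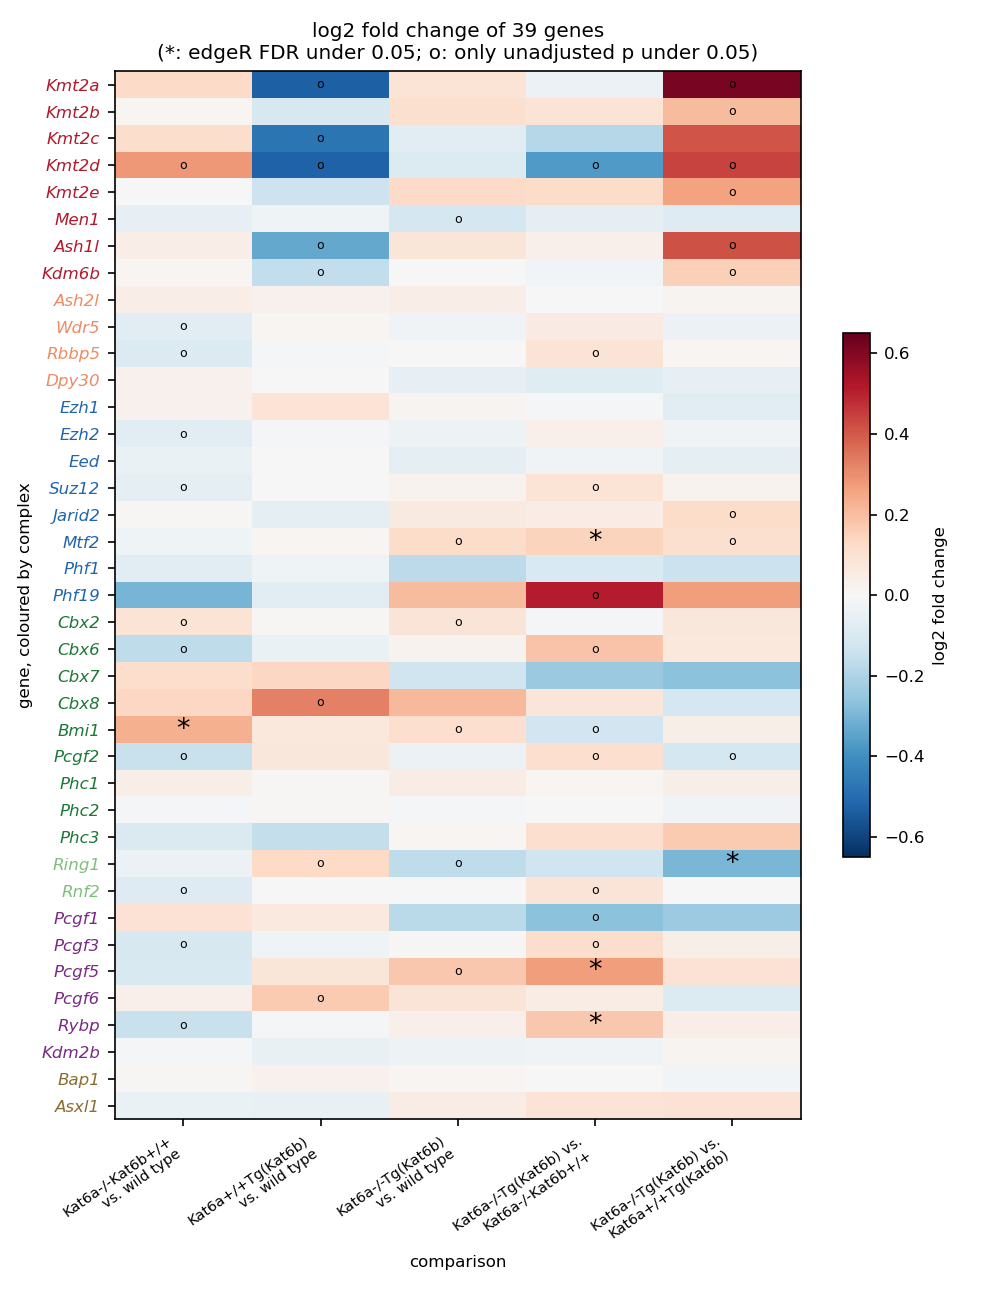
log2 fold change of the 39 genes (rows, coloured by complex) in 5 comparisons of genotypes (columns), with stars for an edgeR FDR under 0.05 and circles for an unadjusted p under 0.05 only. Bmi1, Mtf2, Pcgf5, Rybp and Ring1 carry a star in 1 column each, and the deepest colours of both comparisons that involve Kat6a+/+Tg(Kat6b) embryos are at the long methyltransferase genes.

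The first comparison asks what loss of KAT6A does to these regulators. In Kat6a-/-Kat6b+/+ embryos Bmi1, a canonical PRC1 subunit known for keeping Hox genes and the Ink4a locus repressed and stem cells dividing, rose, and it was the 1 gene of the 39 past the threshold. The background was 1.88% of all tested genes called, 0.944% called higher, so that 1 of 39 is near it. At an unadjusted p under 0.05 stood 12 of the 39, 3 higher and 9 lower, which is 30.8% beside 15.2% of all tested genes (7.30% higher and 7.93% lower). The groups did not overlap for 6 genes (Bmi1, Pcgf2, Rybp, Ezh2, Wdr5 and Phf19), where 7.97% of all tested genes had that pattern.

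Bmi1 was at 93.9, 104, 107 and 101 CPM in wild-type embryos and at 116, 119, 117 and 122 CPM in Kat6a-/-Kat6b+/+ embryos. Every Kat6a-/-Kat6b+/+ embryo lay above every wild-type embryo, also within each sex. The female Kat6a-/-Kat6b+/+ embryos were all of litter 801 and the males all of litter 803, so sex and litter cannot be told apart among them. The wild-type embryo of each of these litters was male. The log2 fold change was 0.229 (SE 0.0404; edgeR FDR = 0.00381), or 1.17-fold. Kat6a+/+Tg(Kat6b) embryos, at 104, 104, 110 and 110 CPM, and Kat6a-/-Tg(Kat6b) embryos, at 113, 102, 110 and 105 CPM, overlapped wild type and lay below all Kat6a-/-Kat6b+/+ embryos. Within litter 801 the log2 difference between 2 Kat6a-/-Kat6b+/+ embryos and their wild-type littermate was 0.324, and within litter 803 it was 0.199. With litter as a block, which left 12 embryos in the fit, the log2 fold change was 0.263 and the call was lost (edgeR FDR = 0.0908).

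Bmi1 lies on chromosome 2 of GRCm39, the build of the files, at chr2:18681292-18691441 on the forward strand, and none of its exon bases overlap another annotated gene. The upstream neighbour on the same strand is Commd3, a COMM domain gene whose annotated end is 246 bases before the start of Bmi1. The stretch between them is shown because the genes on both of its sides were higher in Kat6a-/-Kat6b+/+ embryos; it holds 31 CpG dinucleotides, and capitals mark 4 matches to GGGCGG or CCGCCC, overlaps included. An antisense non-coding transcript begins within it in the annotation.
Commd3 to Bmi1, chr2:18681046-18681291, forward strand of GRCm39: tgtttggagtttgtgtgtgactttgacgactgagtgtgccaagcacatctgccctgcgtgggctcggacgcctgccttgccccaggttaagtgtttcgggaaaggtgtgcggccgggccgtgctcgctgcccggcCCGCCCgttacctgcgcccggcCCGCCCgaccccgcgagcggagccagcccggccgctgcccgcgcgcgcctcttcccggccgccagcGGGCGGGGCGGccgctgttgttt

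Commd3 was at 24.7, 22.5, 23.2 and 25.9 CPM in wild type and at 29.0, 30.5, 30.8 and 29.0 CPM in Kat6a-/-Kat6b+/+ embryos, without overlap (log2 fold change 0.315, SE 0.0776; edgeR FDR = 0.0383). Antisense exons cover 15.4% of its exon bases, and the library kit does not keep the strand. Of the 10 tested genes that overlap the 1 Mb on either side of Bmi1, 3 passed the threshold in this comparison. They are named after their values were seen. Skida1, listed among the other Polycomb genes, was lower, at 45.4, 48.5, 47.2 and 46.8 CPM against 71.6, 73.3, 73.0 and 67.0 CPM in wild type (log2 fold change -0.602, SE 0.0481; edgeR FDR = 4.20e-07). Relative to the transcription start of Bmi1, that of Skida1, which is on the reverse strand, lies at -627430 bases. A930004D18Rik, next to Skida1, was lower as well (log2 fold change -0.386, SE 0.0907; edgeR FDR = 0.0289). The call for Skida1 held under all 27 alternatives tried, and those for Commd3 and A930004D18Rik held under 14 of 27 each.

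**Figure D3:**
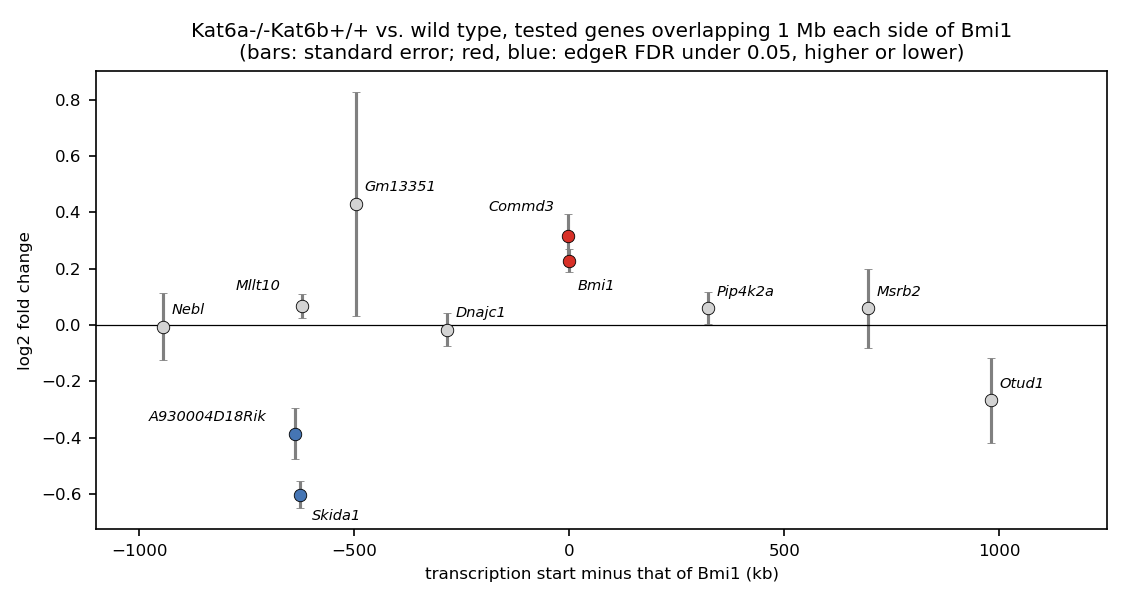
log2 fold change in Kat6a-/-Kat6b+/+ vs. wild-type embryos (y axis, points with the standard error) of tested genes around Bmi1, by the transcription start relative to that of Bmi1 in kb (x axis). Commd3 and Bmi1 are higher (0.315 and 0.229), Skida1 and A930004D18Rik lower (-0.602 and -0.386), and the other genes did not pass the threshold.

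Pcgf2, the closest relative of Bmi1 and its alternative in canonical PRC1, stood on the other side. It was at 85.5, 96.7, 93.6 and 92.1 CPM in wild type and at 83.9, 84.2, 84.4 and 80.4 CPM in Kat6a-/-Kat6b+/+ embryos. The groups did not overlap, but the difference of -0.145 (SE 0.0425) did not pass over all genes (edgeR FDR = 0.0852). Kat6a+/+Tg(Kat6b) embryos were at 95.7, 97.0, 102 and 91.5 CPM and Kat6a-/-Tg(Kat6b) embryos at 89.1, 93.0, 87.4 and 91.3 CPM, both above the highest Kat6a-/-Kat6b+/+ embryo. Over all 4 genotypes Pcgf2 passed (edgeR FDR = 0.0113). Antisense exons cover 8.1% of its exon bases. The within-litter differences were uneven, -0.0247 in litter 801 and -0.230 in litter 803.

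The ratio of Bmi1 to Pcgf2, in RPKM and within an embryo, was 0.774, 0.760, 0.804 and 0.776 in wild type and 0.976, 0.996, 0.977 and 1.07 in Kat6a-/-Kat6b+/+ embryos. It was 0.783 ± 0.0425 for Kat6a+/+Tg(Kat6b) embryos (SD, n = 4) and, among those of Kat6a-/-Tg(Kat6b), 0.842 ± 0.0590 (SD, n = 4). The ratio was chosen after both genes had been seen and has no test. Of the summed PCGF level Bmi1 took 24.0% ± 0.599 in wild type and 27.9% ± 0.838 in Kat6a-/-Kat6b+/+ embryos, and Pcgf2 30.8% ± 0.724 and 27.8% ± 0.498 (SD, n = 4 each). Each of these values rests on 1341 or more counts per gene and embryo.

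Both genes hold an E-box, CACGTG, in the 300 bases around a RefSeq start (250 before and 50 after), as do 7.15% of the 32851 promoters in the RefSeq table of GRCm38.p6. The hexamer reads the same on both strands. Among 45 promoters of the 31 genes that matched the table, 7 hold one, so the motif is not particular to this pair. The others are promoters of Bap1, Cbx6, Cbx8, Phc2 and Phc3. The motif and 12 bases on each side are shown for this pair, with the motif in capitals and positions from an exact match to GRCm39.
Bmi1, chr2:18681602-18681631, forward strand: gaatgaggggagCACGTGacccggcggggg
Pcgf2, chr11:97590594-97590623, reverse strand: aaggaatgaggtCACGTGggtgagtagtgg
In the GENCODE annotation that of Bmi1 is intronic, and that of Pcgf2 lies in a first exon of some transcripts and an intron of others. The motif begins 215 bases before the RefSeq start of Bmi1 and 137 bases before that of Pcgf2. The promoters of these genes as a whole were rich in CpG, with a median of 24 against 7 dinucleotides in all promoters, and 41 of the 45 lay above that median.

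Rybp, the subunit that marks variant PRC1, was at 67.5, 67.4, 68.1 and 70.4 CPM in wild type and at 62.1, 61.6, 62.6 and 61.3 CPM in Kat6a-/-Kat6b+/+ embryos. These groups did not overlap, and the difference was -0.146 (SE 0.0402; edgeR FDR = 0.0645). Cbx6 was at 51.8, 51.7, 56.1 and 60.1 CPM and at 42.0, 52.3, 53.1 and 46.9 CPM, with overlap (-0.163, SE 0.0561; edgeR FDR = 0.153). Neither passed as fitted, though Rybp passed by DESeq2 (adjusted p = 0.0486) and in edgeR without replicate 1 of Kat6a+/+Tg(Kat6b) (FDR = 0.0373). The edgeR FDR of Rybp reached 0.176 with another embryo left out and was 0.631 with the litter block.

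For the methyltransferase Ezh2, 308, 301, 305 and 310 CPM in wild type stood against 293, 295, 289 and 291 CPM in Kat6a-/-Kat6b+/+ embryos. The groups did not overlap, and the difference was -0.0670 on the log2 scale (SE 0.0265; edgeR FDR = 0.217). Suz12 and Rnf2 had differences of -0.0654 and -0.0859 with overlap. Wdr5 was at 166, 163, 164 and 164 CPM against 161, 160, 152 and 152 CPM (-0.0757, SE 0.0340; edgeR FDR = 0.287). Rbbp5 and Pcgf3 were at -0.0887 and -0.104, Cbx2 at 0.0899 and Kmt2d at 0.282, all with an unadjusted p under 0.05 and an edgeR FDR of 0.187 or more. Within litters 801 and 803 the log2 differences of Kmt2d were -0.168 and 0.478, and those of Pcgf3 -0.108 and 0.0275. Phf19 had the lowest value of this comparison, -0.301 (SE 0.159; edgeR FDR = 0.383), at 2.19 to 2.85 CPM against 2.95 to 3.20 CPM.

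By complex, 6 of 8 PRC2 genes were below 0 with a median of -0.0532, and 4 of 6 variant PRC1 genes with a median of -0.0528. Of the 9 canonical PRC1 genes 5 were above 0, and of the 8 trithorax genes other than the shared subunits 7, with medians of 0.0360 and 0.0300. Of the 4 shared subunits 2 were below 0, with a median of -0.0245. The 8 include Kmt2a, Kmt2b, Kmt2c, Kmt2d and Ash1l, which are longer than 8000 bases. All 989 long genes tested had a median of 0.0339, and the part of length was not tested. All tested genes had a median of 0.00325 and 51.2% above 0. Ash2l, Dpy30, Eed, Men1, Ezh1, Phc1, Phc2, Kdm2b and Bap1 lay between -0.0546 and 0.0457 on the log2 scale.

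Markers of other cell types moved in this comparison too. All 3 macrophage genes were called higher in Kat6a-/-Kat6b+/+ embryos, with a summed level of 2.54 to 7.21 against 1.60 to 3.17 CPM in wild type, and of the 3 neural crest genes Foxd3 was called lower. The summed level of 3 endoderm genes was 14.4 to 18.7 CPM against 18.4 to 58.1 CPM, with none called. Their part in the results was not tested.

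**Figure D4:**
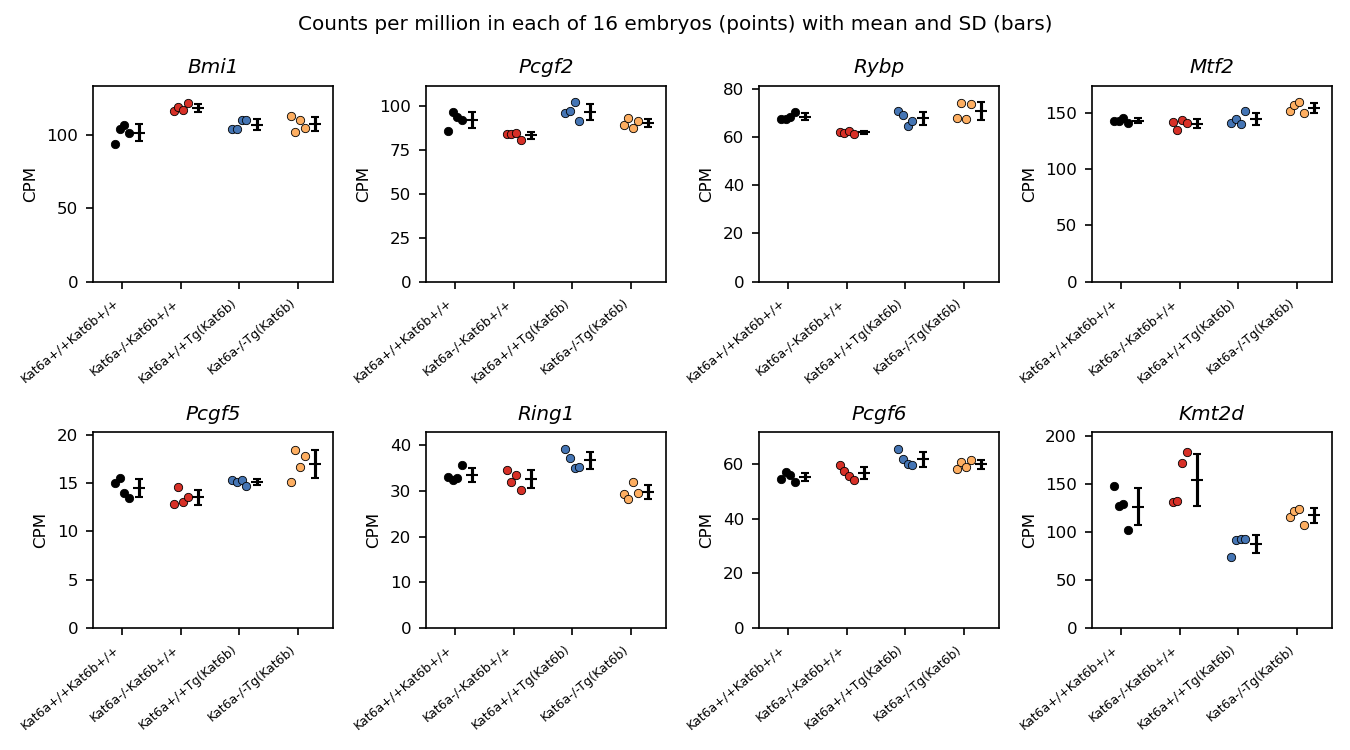
CPM in each embryo (points) with mean and SD (bars) of the 7 genes called over all genotypes and of Pcgf5, by genotype, on axes that start at 0. Bmi1 is highest and Pcgf2 and Rybp are lowest in Kat6a-/-Kat6b+/+ embryos, Ring1 is lowest and Mtf2 and Pcgf5 are highest in Kat6a-/-Tg(Kat6b) embryos, and Kmt2d is lowest in Kat6a+/+Tg(Kat6b) embryos by the mean.

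The second comparison asks what remains of these differences when Kat6b is overexpressed without KAT6A. Relative to wild type, edgeR called in Kat6a-/-Tg(Kat6b) embryos 0 of the 39 genes, where the background was 0.670% of all tested genes. DESeq2 and limma-voom called 0 as well, beside 244 and 105 of all genes. At an unadjusted p under 0.05 in edgeR stood 6 of the 39, or 15.4% beside 12.7% of all tested genes. The groups did not overlap for 4 of the 39, where the background was 7.10%. Bmi1 differed from wild type by 0.107 (SE 0.0426; edgeR FDR = 0.290), with a 95% interval of 0.0183 to 0.195. Mtf2, an accessory subunit that takes PRC2 to CpG islands, was at 152, 157, 160 and 150 CPM against 143, 143, 146 and 141 CPM in wild type. Its groups did not overlap (0.120, SE 0.0371; edgeR FDR = 0.155). Ring1 was at 29.3, 28.1, 31.8 and 29.4 CPM against 32.9, 32.4, 32.7 and 35.6 CPM (-0.166, SE 0.0629; edgeR FDR = 0.254). Cbx2, at 207, 200, 202 and 206 CPM against 190, 199, 186 and 188 CPM, also had no overlap (0.0840, SE 0.0350; edgeR FDR = 0.316). The remaining genes below that p were Pcgf5 at 0.176 and Men1 at -0.113. Of the markers, Tubb3 of early neurons and Meox1 of somites were called lower in these embryos, and their part was not tested. The 3 early neuron genes had a median log2 fold change of -0.129, but the 4 somite genes one of 0.0311.

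The comparison of the null embryos with and without the transgene had more calls. Rybp, Mtf2 and Pcgf5 were called higher in Kat6a-/-Tg(Kat6b) relative to Kat6a-/-Kat6b+/+ embryos, and none of the 39 was called lower. Rybp and Pcgf5 belong to variant PRC1, where 4 genes were above 0 and 2 below. Mtf2 belongs to PRC2, with 5 above and 3 below. The background was 7.14% of all tested genes called, 3.39% called higher, so that 3 of 39 is near it. At an unadjusted p under 0.05 were 13 genes (33.3% beside 23.2%), and 11 did not overlap (background 15.2%). This comparison shares the Kat6a-/-Kat6b+/+ embryos with the first, so their values enter both. Of 3 early neuron genes, Tubb3 and Elavl3 were called lower in Kat6a-/-Tg(Kat6b) embryos, with a summed level of 112 to 170 against 165 to 201 CPM. The neural progenitor gene Nes and the somite gene Meox1 were called lower too, and the part of these 4 genes was not tested. The 4 progenitor and the 4 somite genes had median log2 fold changes near 0, at -0.0165 and 0.00413.

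Rybp was at 67.6, 74.1, 67.5 and 73.7 CPM in Kat6a-/-Tg(Kat6b) embryos, above the 61.3 to 62.6 CPM of Kat6a-/-Kat6b+/+ embryos and spread around wild type (log2 fold change 0.176, SE 0.0414; edgeR FDR = 0.0138). It kept its call in all 26 alternatives. Mtf2, at 150 to 160 CPM, lay above 142, 135, 144 and 141 CPM (0.147, SE 0.0364; edgeR FDR = 0.0190). Pcgf5, a variant PRC1 subunit, was at 15.1, 18.4, 16.6 and 17.8 CPM against 12.8, 14.6, 13 and 13.6 CPM (0.273, SE 0.0731; edgeR FDR = 0.0269). The calls of Mtf2 and Pcgf5 depended on single embryos. Without replicate 2 or 3 of Kat6a-/-Tg(Kat6b) the edgeR FDR of Mtf2 was 0.0502 and 0.0712 and that of Pcgf5 0.0592 and 0.0651; Mtf2 was also lost without replicate 2 of Kat6a-/-Kat6b+/+ (edgeR FDR = 0.0654), and Pcgf5 without replicate 1 of that genotype or replicate 4 of Kat6a-/-Tg(Kat6b) (0.0880 and 0.0786). Antisense exons cover 6.95% of the exon bases of Mtf2 and 5.03% of those of Pcgf5, and none of those of Rybp.

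Of the genes just outside the threshold, Cbx6 (0.186, SE 0.0578; edgeR FDR = 0.0531) and Phf19 (0.509, SE 0.159; edgeR FDR = 0.0543) were higher in Kat6a-/-Tg(Kat6b) embryos. Cbx6 was at 55.6, 50.4, 59.1 and 47.9 CPM, overlapping the values without the transgene, and Phf19 at 3.50, 3.29, 3.82 and 3.10 CPM against 2.43, 2.32, 2.19 and 2.85 CPM. Cbx6 passed by DESeq2 (adjusted p = 0.0399), with DESeq2 size factors in edgeR (FDR = 0.0478) and without any 1 of 7 embryos (FDR 0.0192 to 0.0496). Phf19 passed without any 1 of 3 embryos (edgeR FDR = 0.0350 to 0.0498). With other embryos left out the edgeR FDR reached 0.253 for Cbx6 and 0.133 for Phf19. Of the 39 genes DESeq2 called 4 in this comparison and limma-voom 3, beside 1315 and 1253 of all genes. Bmi1 was lower, by -0.122 (SE 0.0416; edgeR FDR = 0.0748), and Pcgf2 higher, by 0.108 (SE 0.0439; edgeR FDR = 0.137), neither past the threshold and both without overlap. Bmi1 passed with length offsets, with the pair of genotypes fitted alone and without replicate 1 of Kat6a+/+Tg(Kat6b), at edgeR FDR values of 0.0155, 0.0362 and 0.0454. With another embryo left out its edgeR FDR reached 0.196. Suz12, Rnf2, Rbbp5 and Pcgf3 had values of 0.0893, 0.0832, 0.0871 and 0.113, Pcgf1 of -0.269 and Kmt2d of -0.368, each with an unadjusted p under 0.05.

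For the transgene on its own, Kat6a+/+Tg(Kat6b) vs. wild-type embryos, edgeR called 0 of the 39 genes, where the background was 0.140%. limma-voom called 0 and DESeq2 4, among them Kmt2d, Pcgf6 and Kmt2a, beside 18 and 219 of all genes. At an unadjusted p under 0.05 in edgeR stood 8 of the 39 (20.5% beside 11.5% of all tested genes). The groups did not overlap for 3, Pcgf6, Kmt2d and Kmt2a, where the background was 4.00%. The lowest p was that of Pcgf6, a variant PRC1 subunit found at germ cell genes. It was at 65.5, 61.7, 60.0 and 59.5 CPM against 54.5, 56.9, 55.8 and 53.4 CPM in wild type, with no overlap (log2 fold change 0.170, SE 0.0406; edgeR FDR = 0.101). Kat6a-/-Tg(Kat6b) embryos, at 58.0, 60.8, 58.9 and 61.2 CPM, lay above wild type too, and Kat6a-/-Kat6b+/+ embryos, at 59.4, 57.5, 55.6 and 54.1 CPM, overlapped it. Within litter 2597 the log2 difference between transgenic and wild-type embryos was 0.160 and within litter 2598 it was 0.156. Ring1 was at 39, 37.2, 35 and 35.2 CPM (0.132, SE 0.0595; edgeR FDR = 0.384), and Cbx8 at 6.46 to 7.87 against 4.14 to 7.10 CPM (0.326, SE 0.132; edgeR FDR = 0.324).

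The other 5 genes at that p, Kmt2a, Kmt2c, Kmt2d, Ash1l and Kdm6b, had negative differences, where 7.42% of all tested genes did at that p, and all but Kdm6b are longer than 8000 bases. Kmt2d, the enzyme that places lysine 4 monomethylation at enhancers, was at 148, 127, 129 and 102 CPM in wild type and 131, 132, 172 and 183 CPM in Kat6a-/-Kat6b+/+ embryos. Kat6a+/+Tg(Kat6b) embryos had 74.1, 91.2, 93.0 and 92.7 CPM, and the level was 116, 122, 124 and 107 CPM in those of Kat6a-/-Tg(Kat6b). All Kat6a+/+Tg(Kat6b) embryos were below all others (-0.526 vs. wild type, SE 0.127; edgeR FDR = 0.155), and the gene passed over the 4 genotypes (edgeR FDR = 0.0129). Kmt2a, the methyltransferase best known for sustaining Hox expression, was at 146, 110, 145 and 118 CPM in wild type and at 65.2, 104, 104 and 97.2 CPM in Kat6a+/+Tg(Kat6b) embryos (-0.530, SE 0.154; edgeR FDR = 0.215). Its other embryos were at 120, 118, 153 and 174 CPM without KAT6A and at 129, 124, 139 and 122 CPM without KAT6A but with the transgene. Ash1l was at 44.9, 67.8, 67.7 and 66.5 CPM against 77.9, 65.7, 83.5 and 74.5 CPM (-0.335, SE 0.111; edgeR FDR = 0.253). In these 3 genes replicate 1 was the lowest embryo of its genotype. Of the 4 neural progenitor genes, Nes was called lower in Kat6a+/+Tg(Kat6b) embryos. Their summed level was 684 to 757 against 699 to 786 CPM in wild type. The median log2 fold change of the 4 was on the other side of 0, at 0.0971, and the part of Nes was not tested.

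Length moved with these values. The 7 long genes among the 39 (Kmt2a, Kmt2b, Kmt2c, Kmt2d, Ash1l, Phc3 and Pcgf3) had a median log2 difference of -0.335 in Kat6a+/+Tg(Kat6b) embryos relative to wild type, beside 0.00524 for the other 32 and -0.156 for all 989 long genes tested. Over these 7 genes, replicate 1 of Kat6a+/+Tg(Kat6b) differed from the rest of its genotype by a median of -0.517 on the log2 scale. Without it the differences of Kmt2d and Kmt2a were -0.397 and -0.368 (edgeR FDR = 0.424 and 0.517). Offsets that hold each library's trend with gene length brought them to -0.147 and -0.217 (edgeR FDR = 0.129 and 0.123).

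**Figure D5:**
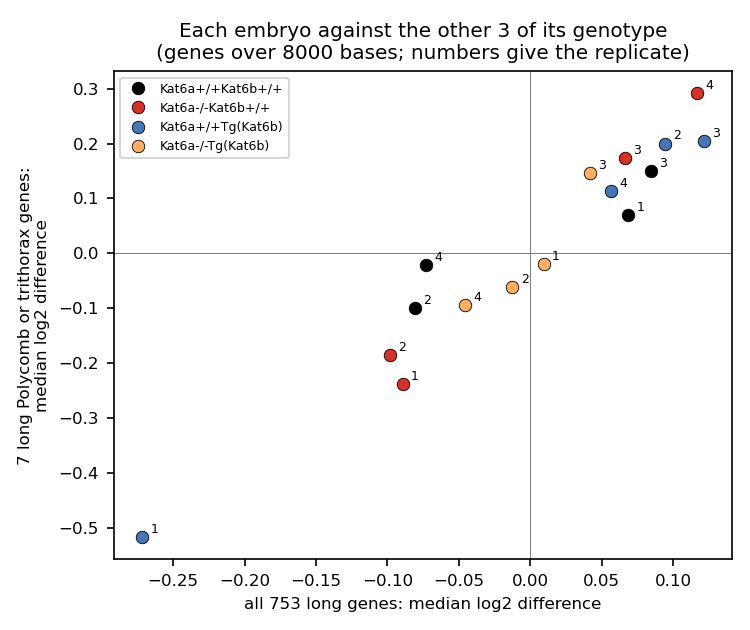
Median log2 difference of each embryo from the other 3 of its genotype, over all 753 long genes (x axis) and over the 7 long genes of the Polycomb and trithorax groups (y axis), with colours for genotype and numbers for replicates. Replicate 1 of Kat6a+/+Tg(Kat6b) is far below the other 15 embryos on both axes, at -0.272 and -0.517.

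Kat6a loss on the background of the transgene, Kat6a-/-Tg(Kat6b) relative to Kat6a+/+Tg(Kat6b), gave 1 call among the 39 genes, where 3.41% of all tested genes were called and 1.14% called lower. Ring1, one of the 2 ubiquitin ligases, fell, from 39, 37.2, 35 and 35.2 CPM to 29.3, 28.1, 31.8 and 29.4 CPM without overlap (log2 fold change -0.299, SE 0.0644; edgeR FDR = 0.0148). The other ligase, Rnf2, had a log2 fold change of 0.000216 (SE 0.0371; edgeR FDR = 0.998; 95% interval -0.0769 to 0.0773). The ratio of Rnf2 to Ring1 was 2.24 ± 0.120 in Kat6a+/+Tg(Kat6b) embryos, 2.73 ± 0.148 in those of Kat6a-/-Tg(Kat6b) and 2.45 ± 0.0752 in wild-type embryos (SD, n = 4 each). The call of Ring1 was lost without replicate 1 of Kat6a+/+Tg(Kat6b) (-0.248; edgeR FDR = 0.0987). In this comparison the progenitor genes Sox1 and Sox2 and Meox1 were called lower and Cdh5 of endothelium and Csf1r of macrophages higher, and their part was not tested.

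Among the 10 genes at an unadjusted p under 0.05 (25.6% beside 18.9% of all tested genes), 8 were higher in Kat6a-/-Tg(Kat6b) embryos, where 10.6% of all tested genes were, and 4 of these 8, Kmt2a, Kmt2b, Kmt2d and Ash1l, were longer than 8000 bases. The groups did not overlap for 6 of the 39 (background 10.5%). Kmt2a differed by 0.618 (SE 0.169; edgeR FDR = 0.0783), Kmt2d by 0.440 (SE 0.139; edgeR FDR = 0.120), Ash1l by 0.413 (SE 0.120; edgeR FDR = 0.0892) and Kmt2b by 0.208 (SE 0.0689; edgeR FDR = 0.114). Kmt2b was at 125, 163, 154 and 148 CPM in Kat6a+/+Tg(Kat6b) embryos beside 158, 157, 179 and 159 CPM in those of Kat6a-/-Tg(Kat6b). Length offsets reduced these values to 0.297, 0.0578, 0.193 and 0.0627, of which that of Kmt2a passed (edgeR FDR = 0.0102). Without replicate 1 of Kat6a+/+Tg(Kat6b) they were 0.421, 0.287, 0.246 and 0.105, none past the threshold. Jarid2, an accessory subunit of PRC2, was at 118, 126, 127 and 123 CPM against 130, 134, 138 and 132 CPM (0.121, SE 0.0394; edgeR FDR = 0.0927).

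Whether Kat6a loss acted differently with and without the transgene was tested by the interaction. edgeR, DESeq2 and limma-voom each called 0 of the 39 genes. The background was 0.153% in edgeR, and DESeq2 and limma-voom called 138 and 25 of all genes. At an unadjusted p under 0.05 in edgeR stood 9 of the 39 (23.1% beside 14.6% of all tested genes). The lowest p was that of Bmi1, for which the log2 fold change with Kat6a loss in transgenic embryos minus that without the transgene was -0.192 (SE 0.0595; 95% interval -0.316 to -0.0686; edgeR FDR = 0.166). Rybp followed at 0.186 (SE 0.0588; edgeR FDR = 0.170), then Ring1 at -0.260 (SE 0.0868; edgeR FDR = 0.187) and Cbx6 at 0.232 (SE 0.0820; edgeR FDR = 0.210). None of these differences in response passed the threshold.

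For most other pairs of groups the named genes overlapped. Ezh2 was at 307, 303, 303 and 302 CPM in Kat6a+/+Tg(Kat6b) embryos beside 297, 294, 302 and 301 CPM in those of Kat6a-/-Tg(Kat6b). Wdr5 was at 172, 163, 155 and 172 CPM and at 163, 163, 159 and 168 CPM in the same genotypes. The transgenic groups overlapped for Wdr5 but not for Ezh2 (log2 fold change -0.0212, SE 0.0291; edgeR FDR = 0.745). Bap1 stayed within 186 to 200 CPM in all 16 embryos, with 188, 194, 188 and 190 CPM in wild type, 192, 194, 190 and 186 CPM in Kat6a-/-Kat6b+/+ embryos, 193, 192, 189 and 200 CPM in those of Kat6a+/+Tg(Kat6b), and 191, 198, 187 and 195 CPM in those of Kat6a-/-Tg(Kat6b). Cbx7 overlapped between all genotypes, at 3.57, 5.91, 3.35 and 5.08 CPM in wild type, 6.03, 5.00, 3.6 and 4.62 CPM in Kat6a-/-Kat6b+/+ embryos, 5.41, 4.90, 4.33 and 3.8 CPM in those of Kat6a+/+Tg(Kat6b), and 3.34, 5.20, 4.93 and 4.90 CPM in those of Kat6a-/-Tg(Kat6b).

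Cbx2 was at 209, 197, 199 and 206 CPM in Kat6a-/-Kat6b+/+ embryos and at 193, 181, 192 and 198 CPM in those of Kat6a+/+Tg(Kat6b). Cbx6 was at 54.3, 50.9, 55.2 and 55.5 CPM, Rybp at 70.7, 69.2, 64.5 and 66.4 CPM and Mtf2 at 141, 145, 140 and 152 CPM in Kat6a+/+Tg(Kat6b) embryos, each overlapping wild type. Pcgf5 was at 15, 15.5, 14 and 13.4 CPM in wild type and at 15.3, 15.1, 15.3 and 14.7 CPM in Kat6a+/+Tg(Kat6b) embryos. Among the least expressed, Phf19 was at 2.96, 3.20, 2.95 and 3.16 CPM in wild type and at 2.15, 3.16, 3.50 and 3.06 CPM in Kat6a+/+Tg(Kat6b) embryos. It rests on 37 to 141 counts per embryo. Ring1 was at 34.5, 32.0, 33.5 and 30.2 CPM in Kat6a-/-Kat6b+/+ embryos, overlapping wild type.

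Jarid2 was at 129, 128, 133 and 124 CPM in wild type and at 134, 126, 130 and 130 CPM in Kat6a-/-Kat6b+/+ embryos. Kmt2b was at 150, 156, 164 and 154 CPM and at 147, 152, 165 and 166 CPM in those genotypes. Ash1l was at 71.3, 69.6, 78.0 and 89.2 CPM in Kat6a-/-Kat6b+/+ embryos and at 73.3, 70.6, 86.3 and 67.5 CPM in those of Kat6a-/-Tg(Kat6b). All 3 overlapped between the groups given.

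Of 34 further Polycomb genes 7 and of 37 further trithorax genes 8 were called by edgeR for any difference among the 4 genotypes, where 11.5% of all tested genes were. At an unadjusted p under 0.05 in that test were 38.2% of the former and 51.4% of the latter, beside 28.2% of all tested genes. Of the Polycomb genes, Skida1 fell in Kat6a-/-Kat6b+/+ vs. wild-type embryos and stayed below wild type in Kat6a-/-Tg(Kat6b) embryos, at 56.7, 62.2, 60.2 and 60.9 CPM (log2 fold change -0.255, SE 0.050; edgeR FDR = 0.0155). Those embryos lay between the other groups, and the difference from Kat6a-/-Kat6b+/+ embryos was 0.348 (SE 0.050; edgeR FDR = 0.000335). Epop, a PRC2 partner that binds elongin, was lower in Kat6a-/-Tg(Kat6b) than in wild-type embryos (-0.271, SE 0.0548; edgeR FDR = 0.0207) and than in Kat6a+/+Tg(Kat6b) embryos (-0.226, SE 0.0570; edgeR FDR = 0.0327). The O-GlcNAc transferase Ogt rose in Kat6a-/-Tg(Kat6b) relative to Kat6a-/-Kat6b+/+ embryos (0.266, SE 0.0537; edgeR FDR = 0.00746). Bcorl1, a variant PRC1 subunit, was higher (0.288, SE 0.0702; edgeR FDR = 0.0291) and Skida1 lower (-0.320, SE 0.0521; edgeR FDR = 0.00276) in Kat6a-/-Tg(Kat6b) than in Kat6a+/+Tg(Kat6b) embryos.

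Of 37 further trithorax genes, edgeR called 0 in each of the 3 comparisons with wild type, as did limma-voom, and DESeq2 called 4 lower in Kat6a+/+Tg(Kat6b) embryos, beside 219 of all genes, and 0 in the others. At an unadjusted p under 0.05 were 4, 3 and 15 of them for embryos without KAT6A, without KAT6A but with the transgene, and with the transgene only, or 10.8%, 8.11% and 40.5% beside 15.2%, 12.7% and 11.5% of all tested genes. With the same reference, the Kat6a-/-Kat6b+/+ embryos, Brd3, a reader of acetylated histones, and the methyltransferase Setd1a were higher in Kat6a-/-Tg(Kat6b) embryos, by 0.127 (SE 0.0337; edgeR FDR = 0.0258) and 0.144 (SE 0.0410; edgeR FDR = 0.0365). The chromatin remodelling genes Arid1a, Arid2 and Chd8 were higher there than in Kat6a+/+Tg(Kat6b) embryos, by 0.369, 0.210 and 0.218 (edgeR FDR = 0.0224, 0.0251 and 0.0450). In that comparison DESeq2 called 12 of the 37 higher and limma-voom 4, beside 883 and 591 of all genes in either direction. In edgeR 51.4% stood at an unadjusted p under 0.05 beside 18.9% of all tested genes. Over all 989 long genes tested, the median log2 fold change was -0.156 for Kat6a+/+Tg(Kat6b) vs. wild-type embryos. For Kat6a-/-Tg(Kat6b) vs. Kat6a+/+Tg(Kat6b) embryos it was 0.184. The part of gene length in the values of these further genes was not tested. Of 38 tested Hox genes, the shared targets of both groups, 9 were called lower in Kat6a-/-Kat6b+/+ vs. wild-type embryos and none higher, with a median of -0.229, where 1.88% of all tested genes were called in either direction. They were Hoxa6, Hoxa10, Hoxb1, Hoxb3, Hoxb9, Hoxc4, Hoxc6, Hoxd3 and Hoxd4, from -0.656 for Hoxb1 to -0.264 for Hoxc6. Relative to Kat6a-/-Kat6b+/+ embryos, 19 were called higher and none lower with the transgene, with a median of 0.306, beside 7.14% of all tested genes called. They were Hoxa3, Hoxa5, Hoxa6, Hoxa10, Hoxa11, Hoxb1, Hoxb3, Hoxb5, Hoxb6, Hoxb8, Hoxb9, Hoxc4, Hoxc6, Hoxc9, Hoxc10, Hoxd3, Hoxd4, Hoxd8 and Hoxd10, and both comparisons share the Kat6a-/-Kat6b+/+ embryos. Relative to wild type, 3 were called higher in Kat6a-/-Tg(Kat6b) embryos, Hoxa10, Hoxc9 and Hoxc10, beside 0.670% of all tested genes called. For Kat6a+/+Tg(Kat6b) embryos, edgeR and limma-voom called 0 relative to wild type and DESeq2 called 5 higher, beside 219 of all genes in either direction. At an unadjusted p under 0.05 in edgeR stood 18 of the Hox genes, or 47.4% beside 11.5% of all tested genes. With the transgene present in both, 5 were called lower without KAT6A, namely Hoxb1, Hoxb3, Hoxb9, Hoxd3 and Hoxd4, where 3.41% of all tested genes were called.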

How the data were processed

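RNA from 16 whole E9.5 embryos was made into libraries with the TruSeq RNA preparation kit, which does not keep the strand, and sequenced from paired ends. The authors aligned reads to mm39 with Rsubread and deposited raw counts per gene and embryo, for which the submitters' processing notes name featureCounts. The annotation release, strand setting and handling of shared reads are not given in the sources used here. The 39 genes and the further lists were chosen with earlier results of these data known.

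Groups came from the sample labels. Genes were filtered with filterByExpr (minimum count 10, minimum total 15), libraries were scaled by TMM, and 2 surrogate variables (sva 3.50.0, on log2 CPM with a prior count of 2, their number set by 20 permutations with at most 4) were added to a robust quasi-likelihood fit over all 16 embryos (edgeR 4.0.16, R 4.3.3). FDR is the Benjamini-Hochberg adjusted p over 15679 genes, with a threshold of 0.05, and standard errors and 95% intervals come from the same fit. CPM and RPKM were computed here. P-values measure the spread between embryos, some of them littermates. Tested on simulated data for Kat6a-/-Kat6b+/+ vs. wild type, with changes of 2-fold or more, the fit recovered 165 of 198 changed genes with 1 false call. Smaller changes, such as those of the called genes among the 39, and effects of litter were not simulated.

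Values in every embryo are given for genes past the threshold in any test or with an unadjusted p under 0.01, for the 3 highest and 3 lowest in wild type, and for Ezh2, Bmi1, Kmt2a and Cbx2. Markers of 10 cell types were checked. Alternatives were 0 or 1 surrogate variable, sex as a covariate, other scalings, DESeq2 1.42.0, limma-voom 3.58.1, no filter, a replicate block, a litter block, fits of 2 genotypes and leaving out each embryo. Same-numbered embryos of different genotypes did not deviate together (10 of 24 pairs with a correlation over 0.1). Counts per embryo (14407277 to 45665680) set the precision. Positions are from GENCODE vM39 on GRCm39 and promoters from RefSeq on GRCm38.p6, matched by gene symbol.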

Additional observations from a re-analysis of the deposited data

Results flagged for a closer look

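Of 76 groups of 4 embryos, for 19 genes, 7 held an embryo whose gap to the nearest other exceeded Dixon's 95% limit for 4 values, where chance gives about 1 in 20. Replicate 1 of Kat6a+/+Tg(Kat6b) stood apart for 3 genes. Its Kmt2d level was 74.1 CPM beside 91.2 to 93.0 CPM in the other 3, its Ash1l level 44.9 CPM beside 66.5 to 67.8 CPM, and its Ezh2 level 307 CPM beside 302 to 303 CPM. This was the embryo with the lowest median over long genes. In Kat6a-/-Tg(Kat6b) embryos Kmt2b was 179 CPM in replicate 3 beside 157 to 159 CPM, and Cbx7 was 3.34 CPM in replicate 1 beside 4.90 to 5.20 CPM. Ring1 was 35.6 CPM in wild-type replicate 4 beside 32.4 to 32.9 CPM. Pcgf2 was 80.4 CPM in replicate 4 of Kat6a-/-Kat6b+/+ beside 83.9 to 84.4 CPM. For none of the 39 genes did the response to Kat6a loss differ with the transgene past an edgeR FDR of 0.05.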

How the results depend on the processing

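None of the log2 fold changes recomputed, those of the 39 genes with an unadjusted p under 0.01 and of 3 genes near Bmi1, changed sign under any alternative. The median over the 39 genes, near 0 throughout, did: for Kat6a-/-Tg(Kat6b) vs. wild-type embryos 0.0143 became -0.000231 without surrogate variables, and for Kat6a+/+Tg(Kat6b) -0.00321 became 0.00368 with length offsets and lay between -0.0169 and 0.00696 with an embryo left out. Of the 39 genes, those called in Kat6a-/-Kat6b+/+ vs. wild-type embryos numbered 1, but 2 with gene length offsets and 2 by DESeq2, 0 with the litter block and 1 to 2 when each embryo was left out, with 2 without wild-type replicate 1 or replicate 1 or 3 of Kat6a+/+Tg(Kat6b). Over all genes the 295 called became 467, 416 and 18 with those settings in turn. Without the embryos named, in that order, they became 357, 432 and 354. For Kat6a+/+Tg(Kat6b) relative to wild type the count among the 39 was 4 by DESeq2 and 0 to 1 with an embryo left out, 1 without wild-type replicate 4. Over all genes 22 were called as reported, 219 by DESeq2 and 108 without that embryo. For Kat6a-/-Tg(Kat6b) relative to Kat6a-/-Kat6b+/+ the 3 of the 39 became 5 with length offsets, 5 with only those genotypes fitted and 1 to 7 with an embryo left out, 7 without replicate 1 of Kat6a+/+Tg(Kat6b) and 1 without replicate 2 or 3 of Kat6a-/-Tg(Kat6b). Over all genes the 1119 called became 1279 and 1141 with those settings in turn. Without the embryos named, in that order, they became 1671, 574 and 636. For Kat6a-/-Tg(Kat6b) relative to Kat6a+/+Tg(Kat6b) the 1 of the 39 became 2 with length offsets, 5 by DESeq2, 2 with only those genotypes fitted and 0 to 4 with an embryo left out, 0 without replicate 1 of Kat6a+/+Tg(Kat6b), 4 without wild-type replicate 4 and 2 without replicate 2 of wild type or of Kat6a+/+Tg(Kat6b). Over all genes the 535 called became 345, 883 and 265 with those settings in turn. Without the embryos named, in that order, they became 165, 876, 775 and 703. The count among the 39 stayed at 0 for Kat6a-/-Tg(Kat6b) vs. wild type and for the interaction under every alternative. Over all genes 39 to 244 and 16 to 138 were called there. The cause of these changes was not tested. The log2 fold change of Bmi1 in Kat6a-/-Kat6b+/+ embryos ranged from 0.187 to 0.268 with an embryo left out (edgeR FDR = 0.00126 to 0.0221).

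The labels number the embryos 1 to 4 in each genotype, but the numbers did not pair them: correlations of same-numbered embryos ran from -0.255 to 0.215 and 4 of 16 embryos correlated best with their own number. With the replicate block, fitted without surrogate variables, the genes called among the 39 were 1 for Kat6a-/-Kat6b+/+, 0 for Kat6a-/-Tg(Kat6b) and 0 for Kat6a+/+Tg(Kat6b) embryos vs. wild type, 3 for Kat6a-/-Tg(Kat6b) relative to Kat6a-/-Kat6b+/+, 1 vs. Kat6a+/+Tg(Kat6b) embryos, 0 for the interaction and 6 for any genotype. The median for Kat6a-/-Tg(Kat6b) vs. wild-type embryos was -0.000765 with the block. Over all genes 127 were called with the block in Kat6a-/-Kat6b+/+ vs. wild-type embryos, beside 95 with neither block nor surrogate variables and 295 as reported. For the other tests, in the order given, it called 96, 5, 869, 515, 17 and 1228 of all genes. Depth limits the low genes most, with as few as 37 counts of Phf19 in 1 embryo.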
